A study of Rattus norvegicus with 6 samples.

Results

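The 4 genes described here encode parts of the cytoskeleton of smooth muscle and mesenchymal cells, and they were taken by Ensembl identifier, under a rule that uses no measured value but was written with earlier results of these data known: ENSRNOG00000017628 (Tagln), ENSRNOG00000019810 (Des), ENSRNOG00000018087 (Vim) and ENSRNOG00000034254 (Actb). All 4 were present among the 26405 distinct genes of the deposited table. The table lists identifiers without symbols. The symbols used here came with the list of identifiers and could not be checked against the RefSeq gene table, which holds 0 rat Ensembl identifiers. RNA-sequencing had been performed on 6 libraries, which the sample labels describe as primary smooth muscle cells from the microvessels of wild-type rats. The cultures of both groups had been starved of serum. The 3 Control libraries came from cells given fresh medium without serum or added growth factors and collected at 24 h, whereas the 3 Icariin libraries came from cells treated with Icariin, a plant flavonoid, and collected at 48 h. By these labels, treatment and time cannot be told apart. The methods of the paper instead give 24 h for both groups, and describe mouse C2C12 myotubes, a skeletal muscle line, in place of rat cells, while every identifier of the table is a rat gene. The replicates are stated to be biological, but nothing says whether they came from separate animals, so the tests measure only the spread between these samples.

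Actin filaments, intermediate filaments and microtubules give a cell its shape and carry its tension. Actb encodes cytoplasmic beta-actin, present in nearly all cells and often used as a reference gene in quantitative PCR. Tagln encodes transgelin (SM22), an actin-binding protein of the contractile smooth muscle programme, which serum response factor and its cofactor myocardin switch on through CArG boxes. Vim and Des encode vimentin and desmin, related intermediate filament proteins of type III. Vimentin is the filament of mesenchymal cells, including fibroblasts, endothelial cells and smooth muscle cells in culture. Desmin marks muscle of all kinds: it is abundant in skeletal myotubes and in much of the smooth muscle of the body, and vascular smooth muscle cells vary in how much they hold.

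The unit of the table is FPKM, fragments per kilobase of transcript scaled to the size of the library, so that levels of different genes can be set side by side. Read counts were not given, so depth is unknown here. A library held 13432 to 14272 genes above 0. The summed FPKM was 313560 to 338212 in the Control libraries and 348888 to 364489 in the Icariin libraries, after 9 values of 1e6 FPKM or more were left out. None of the 4 genes held such a value.

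Actb, Tagln and Vim were among the most abundant transcripts of the Control libraries and each was lower in all 3 Icariin libraries, whereas Des was close to absent in 2 Control libraries and higher, though still low, in all 3 Icariin libraries. The mean level was 3.77-fold lower for Actb, 10.6-fold lower for Tagln and 3.43-fold lower for Vim, and 11.0-fold higher for Des. Single libraries moved these folds: without Control 3 that of Des was 142-fold, by geometric means of all libraries it was 42.5-fold, and without Icariin 1 that of Tagln was 17.8-fold. None of these differences passed the threshold of 0.05 after adjustment in limma, and with 3 libraries against 3 an exact permutation test cannot go below p = 0.1. Groups that did not overlap were found for 16.9% of all genes tested. In bulk RNA, fewer cells of a type and less of a transcript per cell cannot be told apart.

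Beta-actin was the highest of the 4 genes in 5 of the 6 libraries. Actb was at 3804, 6893 and 4673 FPKM in Control 1, 2 and 3 (5124 ± 1593, SD, n = 3). In Icariin 1, 2 and 3 it was at 1926, 1695 and 459 FPKM (1360 ± 789, SD, n = 3). The groups did not overlap, the lowest Control value being 1.98 times the highest Icariin value. Icariin 3 stood below the other Icariin libraries, whose values were close to each other. Beta-actin shares long stretches of sequence with gamma-actin and with processed copies, so its value is uncertain as far as reads were shared between them.

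Tagln, the marker of the contractile smooth muscle programme, showed the largest difference of the 3 abundant genes. Its level was 1378, 947 and 1881 FPKM in the Control libraries (1402 ± 467, SD, n = 3). It was 240, 114 and 44.4 FPKM in the Icariin libraries (133 ± 99.0, SD, n = 3). The lowest Control value was 3.95 times the highest Icariin value. Among the Icariin libraries Tagln spanned 5.40-fold, against 1.99-fold among the Control libraries, and Icariin 3 was again the lowest.

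Vim was the steadiest of the 4 genes among the Control libraries. Vimentin mRNA was at 1948, 2368 and 1532 FPKM there (1949 ± 418, SD, n = 3). It was at 342, 662 and 701 FPKM in the Icariin libraries (569 ± 197, SD, n = 3). The groups were apart by 2.18-fold between the lowest Control and the highest Icariin value. Icariin 3, the lowest library for Actb and Tagln, was the highest Icariin library for Vim.

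Des, the muscle member of the intermediate filament pair, behaved in the opposite direction and at another scale. Desmin mRNA was at 0.0282, 0.0189 and 0.872 FPKM in Control 1, 2 and 3 (0.306 ± 0.490, SD, n = 3), so that 1 library held most of the Control signal and the SD exceeded the mean. It was at 2.84, 2.92 and 4.30 FPKM in the Icariin libraries (3.36 ± 0.822, SD, n = 3). The lowest Icariin value was 3.26 times the highest Control value. In Control 1 and Control 2 at most 4.34% of the genes above 0 had a lower value than Des. With the depth unknown, how many fragments stand behind these levels cannot be given.

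**Figure D1:**
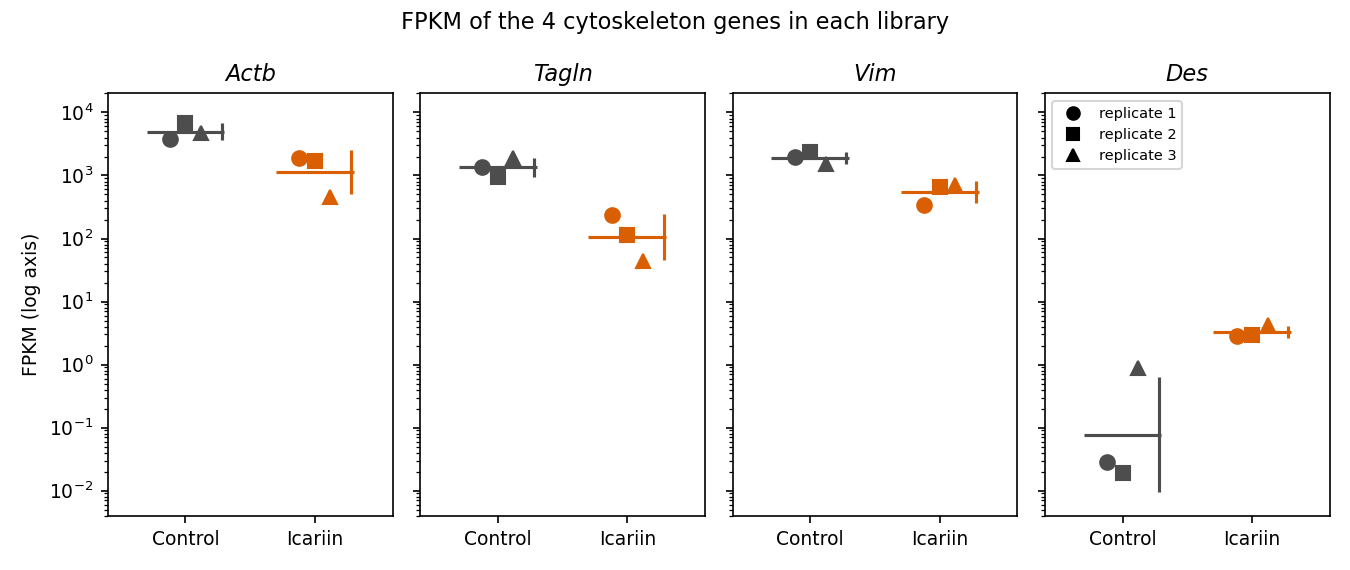
FPKM (log axis, shared by the 4 panels) of Actb, Tagln, Vim and Des in each of the 6 libraries, with the symbol giving the replicate number, a horizontal line at the geometric mean of a group and a vertical bar of 1 SD of the log values (n = 3). Actb, Tagln and Vim lie lower and Des higher in all 3 Icariin libraries, and Control 3 stands above the other Control libraries for Des.

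The region around the start of transcription is printed here for Vim and Des, because only these of the 4 genes were matched to a promoter sequence. RefSeq promoters of the rat build GRCr8, from 250 bases before to 50 bases after the start, were matched by symbol for these 2 of the 4 genes. The windows are chr17:81577011-81577310 on the plus strand for Vim and chr9:84299376-84299675 on the plus strand for Des, each 300 bases long. Capitals mark TATAAA, the common form of the TATA box, and GGGCGG, the core of the GC box that Sp1 binds, on either strand.
Vim: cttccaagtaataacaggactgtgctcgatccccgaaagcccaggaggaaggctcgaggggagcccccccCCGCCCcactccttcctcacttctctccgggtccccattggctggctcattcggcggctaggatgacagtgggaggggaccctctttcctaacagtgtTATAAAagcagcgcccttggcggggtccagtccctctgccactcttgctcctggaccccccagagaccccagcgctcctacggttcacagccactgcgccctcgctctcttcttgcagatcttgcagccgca
Des: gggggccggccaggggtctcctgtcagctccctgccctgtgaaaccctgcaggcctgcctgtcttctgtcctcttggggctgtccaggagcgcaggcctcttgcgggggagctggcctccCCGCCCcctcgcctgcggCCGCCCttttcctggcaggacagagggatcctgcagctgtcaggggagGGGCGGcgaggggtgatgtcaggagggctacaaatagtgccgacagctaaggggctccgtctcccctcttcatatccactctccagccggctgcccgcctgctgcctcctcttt
The Vim window held 1 TATAAA, starting 82 bases before the start site, and 1 GGGCGG. The Des window held 3 GGGCGG, starting 130, 112 and 64 bases before the start site, and no TATAAA. A CArG box was in neither window, and no window was available for Tagln or Actb. Of the 33469 rat promoters of this length, 14.2% held TATAAA, 33.1% held GGGCGG and 1.64% held a CArG box. The share of G and C was 62.0% for Vim and 67.7% for Des, against a median of 51.7% over all windows. These are matches of letters and do not show that a factor binds, and a relation to the levels of the genes was not tested.

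The place of each gene within its library does not depend on the scale of that library. Actb ranked 5th, 2nd and 6th by FPKM in Control 1, 2 and 3, after values of 1e6 FPKM or more were left out, and 21st, 26th and 116th in Icariin 1, 2 and 3. It held between 1.21% and 2.10% of the summed FPKM of a Control library, and between 0.126% and 0.552% of that of an Icariin library. Tagln ranked between 19th and 45th in the Control libraries, but at 196, 450 and 1166 in Icariin 1, 2 and 3. Vim ranked above Tagln in all 3 Icariin libraries, with ranks between 15 and 30 in the Control libraries and between 71 and 123 in the Icariin libraries. Des ranked between 9520 and 13131 in the Control libraries and between 6341 and 7279 in the Icariin libraries. In the Icariin libraries 48.6% to 55.3% of the genes above 0 had a lower value than Des, which places it near the middle of the expressed genes there. As for the labelled cell type, Tagln, Vim and Actb were high in the Control libraries, a pattern that cultured smooth muscle cells and fibroblasts share. Des, the muscle filament, was below 1 FPKM in all 3 Control libraries and above it in all 3 Icariin libraries. Actb and Vim are made by many cell types, so these 4 genes cannot decide the cell type.

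**Figure D2:**
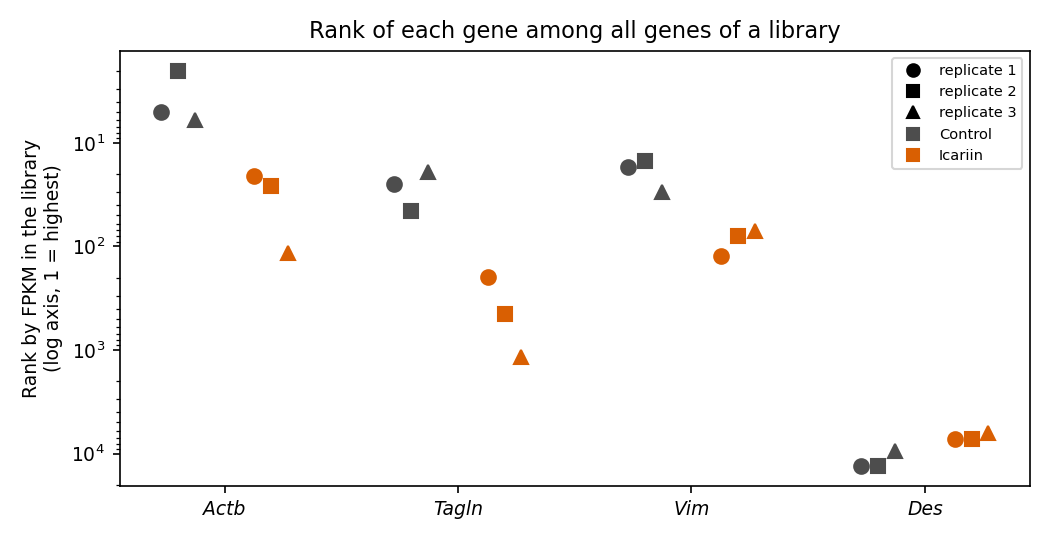
Rank of each gene by FPKM among all genes of a library (log axis, 1 at the top is the highest), in the 3 Control and the 3 Icariin libraries, with the symbol giving the replicate number. Tagln differs most in place among the abundant genes, at 19 to 45 in the Control and 196 to 1166 in the Icariin libraries, while Des lies between 6341 and 13131 throughout.

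By mean log2 FPKM over the 6 libraries the order of levels was Actb, Vim, Tagln and Des. Actb was above Vim in 5 of 6 libraries, by a mean of 1.23 on the log2 scale (SD 1.03), the exception being Icariin 3, where Vim was the highest of the 4 genes. Vim was above Tagln in 5 of 6 libraries, by 1.43 (SD 1.58), the exception being Control 3. Tagln was above Des in 6 of 6 libraries, by 9.55 (SD 5.32), or 7.36 with a pseudocount of 1 FPKM, a mean over groups that differed, at 14.09 in the Control and 5.01 in the Icariin group. The gap ranged from 10.3-fold in Icariin 3 to 49991-fold in Control 2, where Des was near 0 at 0.0189 FPKM. Exact two-sided sign-flip permutation tests over the 6 libraries gave p = 0.0625, 0.0625 and 0.03125, the last being the smallest that 6 libraries allow, and an adjusted p of 0.0625 for each of the 3 neighbouring pairs. No neighbouring pair passed the threshold after adjustment, but the tests cannot decide on the order of levels. The pairs were picked from the order of means in these same libraries. For Tagln over Des the unadjusted p could not be smaller, and its adjusted p was set by the p of the other pairs. Its adjusted p therefore does not speak against the gap, which was at least 10.3-fold in every library. The distance between Vim and Tagln was 1.42-fold in the Control group and 5.09-fold in the Icariin group (geometric means).

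For the test, every gene that reached 1 FPKM in 3 or more libraries was fitted with limma on log2(FPKM + 1), and differences are given on that scale as Icariin minus Control. A gene was called where its adjusted p was under 0.05 and its log2 fold change was beyond 1 in either direction. Of the 10258 genes tested 0 were called, a background of 0%, and 0 of the 4 cytoskeleton genes were called. At an unadjusted p under 0.05 in limma, 1069 genes passed, a background of 10.4%. The 4 genes were among them, at an unadjusted limma p of 0.0011 for Tagln, 0.0014 for Des, 0.0424 for Actb and 0.0469 for Vim. Without Control 2, the unadjusted limma p was 0.0954 for Actb and 0.0890 for Vim. Tagln differed by -3.65 (standard error 0.86, limma adjusted p = 0.147), Actb by -2.12 (standard error 0.94, limma adjusted p = 0.459) and Vim by -1.82 (standard error 0.83, limma adjusted p = 0.466). Des differed by 1.78 (standard error 0.44, limma adjusted p = 0.147), a value that the pseudocount of 1 FPKM compresses. With a pseudocount of 0.1 FPKM it was 3.79 (limma adjusted p = 0.279), and with 0.01 FPKM it was 5.06 (limma adjusted p = 0.441). Des passed the filter only through the Icariin group, where it was higher, so its p-values after the filter rest on that selection. With no filter Des differed by the same 1.78, at a limma adjusted p of 0.222. The median over all genes tested was 0.11, with Tagln, Actb and Vim below it and Des above it.

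Only 13 of the other genes tested, or 0.127%, were as low as Tagln relative to the Control. The corresponding numbers were 151 genes (1.47%) for Actb and 274 genes (2.67%) for Vim, and 448 genes (4.37%) were as high as Des. The groups did not overlap in 1730 genes, a background of 16.9%. Actb, Tagln and Vim were apart and lower with Icariin, which held for 6.59% of the genes tested. Des was apart and higher, which held for 10.3%. However, Des reached 1 FPKM in 0 of the 3 Control and 3 of the 3 Icariin libraries, so it entered the test only through the group where it was higher, and its separation follows from that filter. Its place among the genes tested rests on the same selection. Over all genes above 0 in at least 1 library, where the filter plays no part, 10.1% were apart and higher, and Des was among them.

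**Figure D3:**
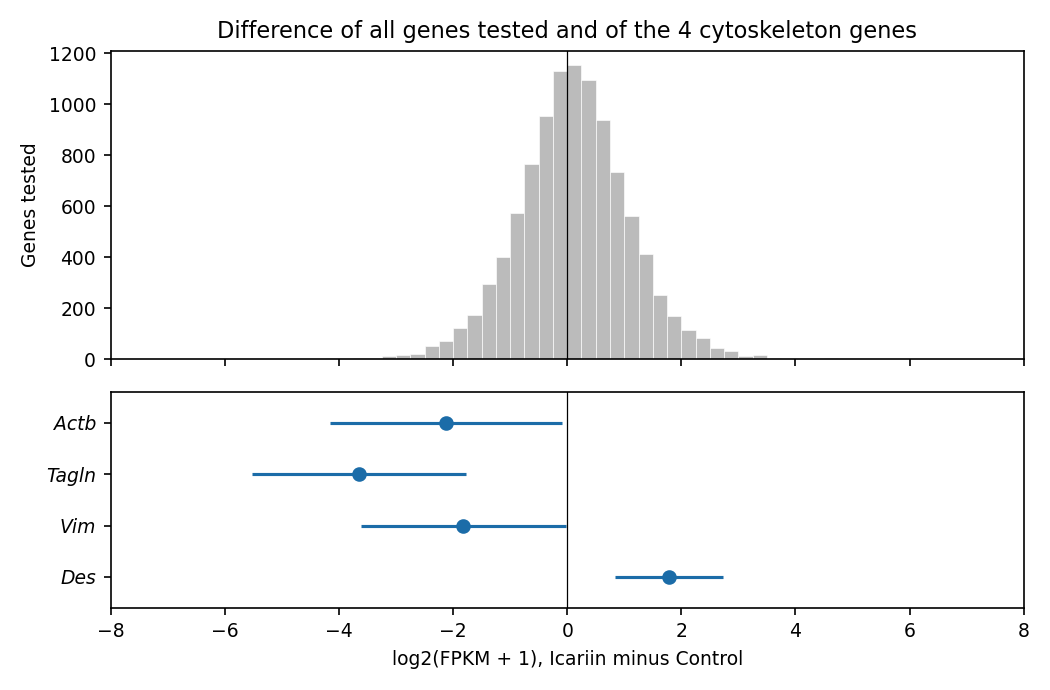
Difference in log2(FPKM + 1), Icariin minus Control, of all genes tested as a histogram with bins of 0.25 (top; 1 gene lies outside the range drawn) and of the 4 cytoskeleton genes with their 95% confidence intervals from limma (bottom). Tagln at -3.65 lies at the lower edge of the distribution, whereas Actb, Vim and Des lie on its flanks, and none of the 4 passed the adjusted threshold. Des entered the test only through the Icariin group.

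Because Actb is commonly used as a reference, the other 3 genes were also expressed relative to it in each library. Tagln was at 0.362, 0.137 and 0.402 of the Actb level in Control 1, 2 and 3, and at 0.124, 0.0670 and 0.0967 in Icariin 1, 2 and 3. The groups did not overlap, although Control 2 was close to Icariin 1, and the ratio was 2.92-fold lower with Icariin, a mean difference of -1.54 on the log2 scale (exact permutation test, two-sided, p = 0.1, adjusted p = 0.15 over 3 ratios). This p is the smallest that the design allows. Vim was at 0.512, 0.344 and 0.328 of the Actb level in the Control libraries and at 0.178, 0.391 and 1.53 in the Icariin libraries. Here the groups overlapped, with the lowest and the highest value both in the Icariin group, and the mean difference was 0.29 on the log2 scale (exact permutation test, two-sided, p = 0.8, adjusted p = 0.8). Without Icariin 3 the sign turned, to -0.55. Des was at 7.42e-06, 2.75e-06 and 0.000187 of the Actb level in the Control and at 0.00148, 0.00173 and 0.00938 in the Icariin libraries, a mean difference of 7.53 on the log2 scale (exact permutation test, two-sided, p = 0.1, adjusted p = 0.15). The groups did not overlap for Des or for Actb, and these genes lay in opposite directions, which add up in the ratio. Its groups therefore had to be apart, and its p was fixed by the levels already given. The mean difference was 3.90 on the log2 scale with a pseudocount of 1 FPKM in both terms, 9.32 without Control 3 and 6.27 without Control 2. Between the related filament genes, Vim exceeded Des by 68992-fold, 124973-fold and 1757-fold in Control 1, 2 and 3. In Icariin 1, 2 and 3 it did so by 120-fold, 226-fold and 163-fold. That these groups did not overlap also follows from the levels of each gene. The Control folds rest on Des near 0, at 0.0282 and 0.0189 FPKM in Control 1 and 2, so their size is uncertain. Tagln was at 0.707, 0.400 and 1.23 of the Vim level in the Control and at 0.700, 0.171 and 0.0633 in the Icariin libraries, where the groups overlapped.

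**Figure D4:**
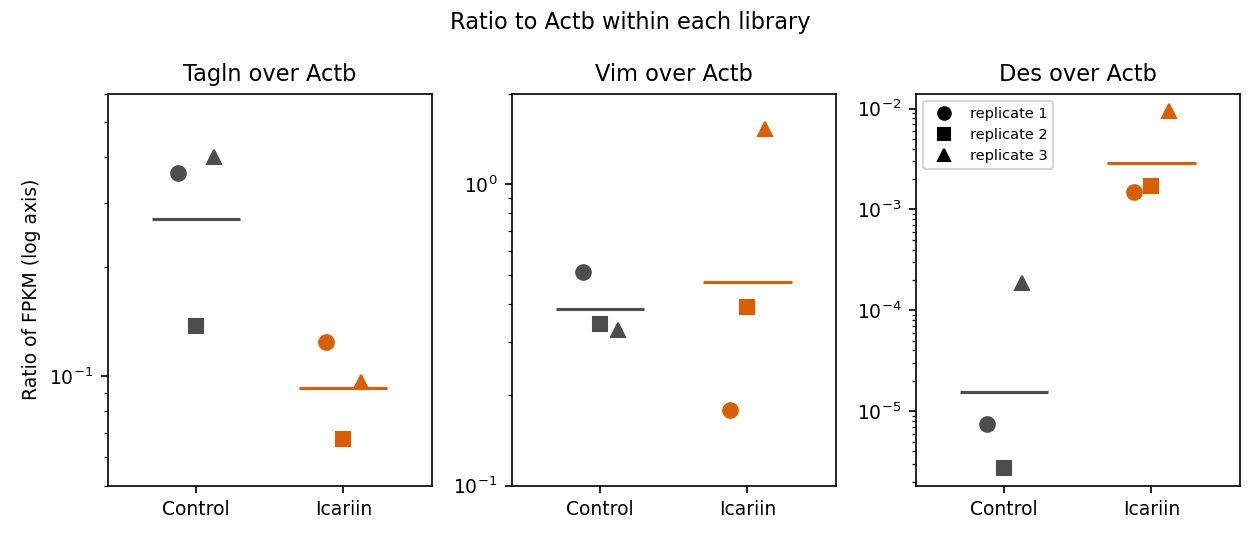
Ratio of FPKM to Actb in the same library (log axes, each panel with its own range) for Tagln, Vim and Des, with the symbol giving the replicate number and a line at the geometric mean of each group (n = 3). Tagln relative to Actb lies lower and Des higher in all Icariin libraries, whereas Vim relative to Actb overlaps between the groups and is widest among the Icariin libraries, from 0.178 to 1.53.

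The replicates of these genes varied by amounts that differed between the groups. The SD of log2 FPKM among the Control libraries was 0.50 for Tagln, 0.44 for Actb and 0.31 for Vim, against a median of 0.86 over the 1230 genes in the same decile of expression. Among the Icariin libraries it was 1.22 for Tagln, 1.15 for Actb and 0.58 for Vim, against a median of 0.79. Tagln and Actb were thus less variable than most genes of like level in the Control group and more variable than most in the Icariin group. For Des the SD was 3.04 among the Control and 0.33 among the Icariin libraries, against medians of 1.24 and 1.09 in its decile. Deciles were set by mean log2 FPKM over the 6 libraries, which the Control values near 0 pull down for Des. In the Icariin libraries Des lay near the middle of the expressed genes, so the median of 1.09 is not one of genes of like level. The difference in spread between the groups was not tested.

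The 4 genes did not order the libraries in the same way. Within the Control group Control 2 was the highest library for Actb and Vim and the lowest for Tagln and Des, whereas Control 3 was the highest for Tagln and Des and the lowest for Vim. Within the Icariin group, Tagln and Actb had Icariin 1 highest and Icariin 3 lowest, and Vim and Des had the opposite order. Over the 6 libraries, the gene most like Tagln in log2(FPKM + 1) was ENSRNOG00000000368 (Pearson's r = 0.980), at 13.6, 6.96 and 13.9 FPKM in the Control and 4.03, 2.84 and 1.50 FPKM in the Icariin libraries. The most like Actb was ENSRNOG00000004598 (r = 0.997), the most like Vim was ENSRNOG00000023753 (r = 0.987) and the most like Des was ENSRNOG00000050358 (r = 0.997). These are descriptions over 6 libraries that share a group difference, picked as the highest of 10257 genes, and r exceeded 0.95 for 27 genes with Tagln, 37 with Actb, 32 with Vim and 67 with Des.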

How the data were processed

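The authors deposited 1 table of FPKM values with a column for each of the 6 libraries, and replicates were not pooled. Bowtie2 and RSEM 1.3.1 are among the tools in the submitters' processing notes, and the annotation release is not given in the sources used here. Columns were matched to samples by name, allowing for a spelling of Icariin. Of 26407 rows, 2 repeated an identifier and were dropped. The count model of the paper could not be applied to FPKM, so differences were fitted with limma 3.58.1 in R 4.3.3 (lmFit, eBayes with trend) without covariates, on log2(FPKM + 1) of the 10258 genes that reached 1 FPKM in 3 or more libraries. Benjamini-Hochberg adjustment ran over all genes tested. Ratios and the order of levels were tested with exact two-sided permutation tests. Both were tested on simulated data. Among genes below 1 FPKM, the most common ratio between 2 libraries was shared by at most 0.782% of genes, so whole reads were not recovered, the depth is unknown and no counting interval was computed. The genes and the tests were chosen with earlier results of these data known. The named genes are the 4 listed ones and, for each, the gene with the highest Pearson's r. Lists of other cell type and cytoskeleton markers were not analysed, because symbols could not be matched to identifiers. Alternatives covered the pseudocount, filter, scaling, limma settings, replicate block and leaving out each library.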

Additional observations from a re-analysis of the deposited data

How the results depend on the processing

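No alternative called any of the 4 genes, and each kept its direction in every alternative in which it was tested (16 for Tagln, Actb and Vim, 12 for Des). Only the alternatives that rescale the libraries could have turned a direction. The groups did not overlap for any of the 4 genes, as was so for 16.9% of all genes tested, and the other alternatives cannot reverse such groups. The difference ranged from -4.23 to -3.02 for Tagln, from -2.49 to -1.46 for Actb (the latter without Icariin 3) and from -2.01 to -1.49 for Vim, and from 1.58 to 5.06 for Des, where the pseudocount set the highest values. Limma adjusted p-values ranged from 0.146 to 0.429 for Tagln, 0.367 to 0.699 for Actb, 0.347 to 0.676 for Vim and 0.154 to 0.441 for Des. Des was not tested at a mean of at least 5 FPKM or without an Icariin library, since it then failed the filter. Median-of-ratios scaling moved the median of all genes from 0.11 to -0.01 and gave -3.80 for Tagln, -2.27 for Actb, -1.97 for Vim and 1.58 for Des.

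With the replicate number as a block, 0 of the 4 genes were called. Paired exact permutation tests gave p = 0.25 for Tagln over Actb, 0.25 for Des over Actb and 0.75 for Vim over Actb. For Tagln and Des over Actb this was the smallest value that a paired exact permutation test on 3 pairs can give. Both ratios had to reach it, because their groups did not overlap. The paired tests therefore cannot show whether the block weakened either difference. Deviations of same-numbered libraries from their group means correlated at -0.0203, 0.0213 and -0.0196. No shared effect of the replicate number was thus visible, which cannot show whether the samples were paired. When 1 library was left out, Vim over Actb ranged from -0.55 to 1.00 on the log2 scale and turned in sign without Icariin 3, Tagln over Actb ranged from -2.04 to -1.26 and Des over Actb from 6.27 to 9.32. The share of genes whose groups do not overlap was between 26.3% and 27.5% when 1 library was left out, since fewer libraries overlap less often.

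The unknown depth limits the values of Des below 1 FPKM, and 3 libraries per group limit every comparison.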
